A study of Mus musculus with 60 samples.

Results

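A group of 74 genes was lower in the lungs of the 24 h sham controls than in the lungs of every other sham group. The members were chosen from the sham arrays themselves. Each gene was read from its probe set with the highest mean, the mean over all 60 arrays had to be at least 6 on the log2 scale, and the mean of the 5 arrays of 24 h sham controls had to lie at least 0.4 below the mean of each of the other 5 sham groups. Of 11182 genes at that level, among 18193 genes measured, 74 met the rule, which is 0.662%. All 74 were annotated as protein coding.

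Each array held RNA from 1 mouse (male, Balb/c), taken from the diaphragmatic lobe of the right lung, and each group had 5 mice. SPIO nanoparticle exposed mice had inhaled an aerosol of superparamagnetic iron oxide through the nose for 4 h, and sham controls had breathed humidified, filtered air with helium and oxygen in the same way. Lungs were taken at 0, 6, 24, 48, 96 and 168 h after the end of the exposure, which gave 6 exposed and 6 sham groups. The mice of the 96 h groups were also used for plethysmography, and those of the 168 h groups lived in metabolism cages with liquid food. Neither the hour of the day of each dissection nor the batch of each array is given in the sources used here. A batch that went with a group cannot be told apart from it. By the stated times, the 24, 48, 96 and 168 h groups lie whole days after the 0 h group, and the 6 h group does not. At 6 h, time after the exposure and hour of the day thus cannot be told apart.

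Because the rule used the sham arrays, every value of the sham groups, and every difference between exposed and sham mice, is given here as a description with no test. The values of the exposed mice entered the rule only through the mean over all arrays, and the levels of the members within the exposed arm were tested. The spread used in these tests was estimated over all 12 groups, so the sham arrays entered the tests through it. The deposited values are log2 intensities, on which a difference of 1 is a factor of 2.

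As background, adipocytes store triglyceride in droplets coated by perilipins and CIDE proteins and secrete adiponectin and resistin, and fat lies close to the lung in the mediastinum and along the large airways. Lung monocytes and macrophages come partly from the blood and partly from a resident pool, and their numbers change when particles are inhaled. Genes of DNA replication and mitosis rise and fall with the number of dividing cells, and the circadian clock drives a daily rhythm of Arntl and its partner genes in almost every tissue.

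Precision depends on how many arrays a group has and on the spread between its mice. Array medians ran from 5.53 to 5.64, and the lung markers Sftpc, Scgb1a1, Ager and Cldn5 had medians of 14.93, 15.03, 14.65 and 12.74 over the 60 arrays. The interquartile range within an array had a median of 3.85 in the 24 h sham arrays, 4.09 in the other sham arrays and 3.99 in the 24 h exposed arrays. The actin control, 3' minus 5' end, had a median of 0.64 in both the 24 h sham and the other sham arrays. Its median was 0.80 in the 24 h exposed and 0.79 in the other exposed arrays. The part of either in the levels of the members was not tested. An array of the 0 h sham controls (array 1) stood apart, with Alb at 14.02 against 5.27 to 11.35 in the other 59 arrays and Xist at 11.94 against 5.16 to 6.02. Xist goes against its label of a male mouse, and its mean of the Y-linked genes, 7.35, does not, since it lay within the range of the other 59 arrays (5.60 to 7.97). An array of the 24 h exposed mice (array 3) had a mean of the Y-linked genes of 5.60, against 6.78 to 7.97 in the other 59 arrays, with Xist low at 5.38. Without the 0 h sham array 67 genes met the rule, of which 64 were among the 74. The list of 21 heat shock chaperones averaged 10.82 to 11.55 in the 24 h exposed arrays, 11.83 to 12.33 in the 24 h sham arrays and 10.55 to 12.16 in the other sham arrays. Its part in the levels of the members was not tested.

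Averaged over the 74 genes, the 24 h sham controls stood at 7.13 ± 0.20 and the other sham groups at 7.86 ± 0.51 to 8.29 ± 0.34 (SD, n = 5 each). The 5 arrays of 24 h sham controls had means of 6.96, 7.34, 7.13, 7.31 and 6.89. The lowest array outside them belonged to the 48 h sham controls, at 7.07, and so lay among them. For a single member, the 24 h sham mean lay 0.48 to 1.90 below the mean of the other sham groups, with a median of 0.85. Over all 11182 genes the same difference had a median of -0.12.

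In the exposed mice the 74 genes did not stand lowest at 24 h. In the order of the 6 times from 0 to 168 h their means were 7.98 ± 0.21, 7.86 ± 0.10, 7.92 ± 0.34, 8.21 ± 0.17, 7.996 ± 0.30 and 8.06 ± 0.21 (SD, n = 5 each). At 24 h the exposed arrays had means of 8.23, 7.59, 8.19, 8.09 and 7.52, all above the highest 24 h sham array, at 7.34. The median difference of exposed from sham mice over the members was 0.74 at 24 h, and at the other times, in order, it was -0.13, -0.09, 0.34, 0.11 and -0.21. Over all 11182 genes it was 0.16 at 24 h and between -0.03 and 0.11 at the other times. Since lung pieces were profiled whole, fewer cells of a type and less RNA per cell cannot be told apart in any of these values.

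**Figure D1:**
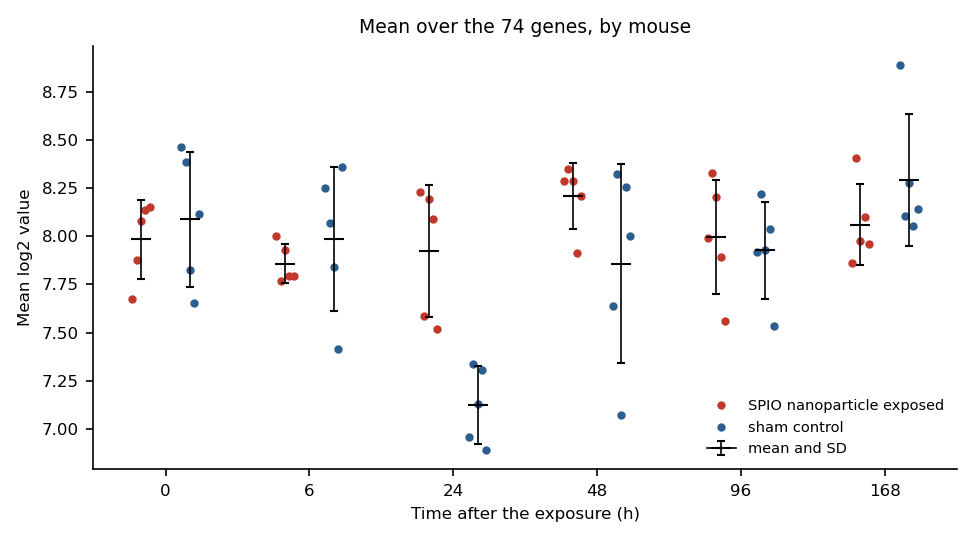
Mean log2 value of the 74 genes in each mouse (points), with the group mean and SD (bars), for exposed mice (red, left) and sham controls (blue, right) by time after the exposure in h. The 24 h sham controls sit between 6.89 and 7.34, below all 5 exposed mice of the same time, which sit between 7.52 and 8.23.

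The separation of single members was less sharp than that of their mean. All 5 arrays of 24 h sham controls lay below all 25 other sham arrays for 2 of 74 members, Kctd14 and Tinagl1 (0.0894% of all genes at that level). Set against the 5 exposed arrays of 24 h, the groups did not overlap for 24 of 74 members (15.1% of all genes). They lay below all 30 exposed arrays for 9 members (2.41% of all genes), which were Kctd14, Klhdc8a, Elp4, Myb, Arntl, Nfe2l3, Pde9a, Itgb3 and Pcx. Kctd14, a protein with a potassium channel tetramerization domain, had 7.26, 7.40, 7.65, 7.07 and 6.98 in the 24 h exposed mice, against 6.12, 6.48, 6.12, 6.17 and 5.91 in the 24 h sham controls. Its other probe sets at a mean of at least 6 differed from each other, with 6.35 in exposed mice and 6.30 in sham controls at 24 h in the first and 6.20 and 5.11 in the second.

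The 24 h exposed mean was above the 24 h sham mean for 73 of 74 members (75.3% of all genes), and at least 0.4 above it for 70 (11% of all genes). The exceptions were Fbp2 and A2ml1, each higher by 0.39, Siglecf at 0.02 and Itgb6 at -0.17. Without exposed array 3 the median difference was 0.65 in place of 0.74, and 65 of 74 members were at least 0.4 higher (11.2% of all genes), and 24 of 74 did not overlap between the arms (16.8%). The exposed mean of 24 h lay within the range of the other 5 sham means for 55 members (66.8% of all genes), below that range for 15 (11.8%) and above it for 4 (21.4%). The 4 were Ifi27l2a, Adcyap1r1, Ccdc80 and Nin. The 15 below were Angptl4, Fabp4, Cidec, Lox, Cd163, Cidea, Cdkn1a, Pdk4, Tnfrsf12a, Fbp2, Itgam, Bnip3, Siglecf, A2ml1 and Itgb6.

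Seen from the side of the sham controls, the 24 h sham mean was below all 6 exposed means for 69 of 74 members (56.4% of all genes). It was at least 0.4 below all of them for 49 (3.78% of all genes). The 5 members with an exposed group as low or lower were Cdkn1a, Pdk4, Itgam, Itgb6 and Fos.

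**Figure D2:**
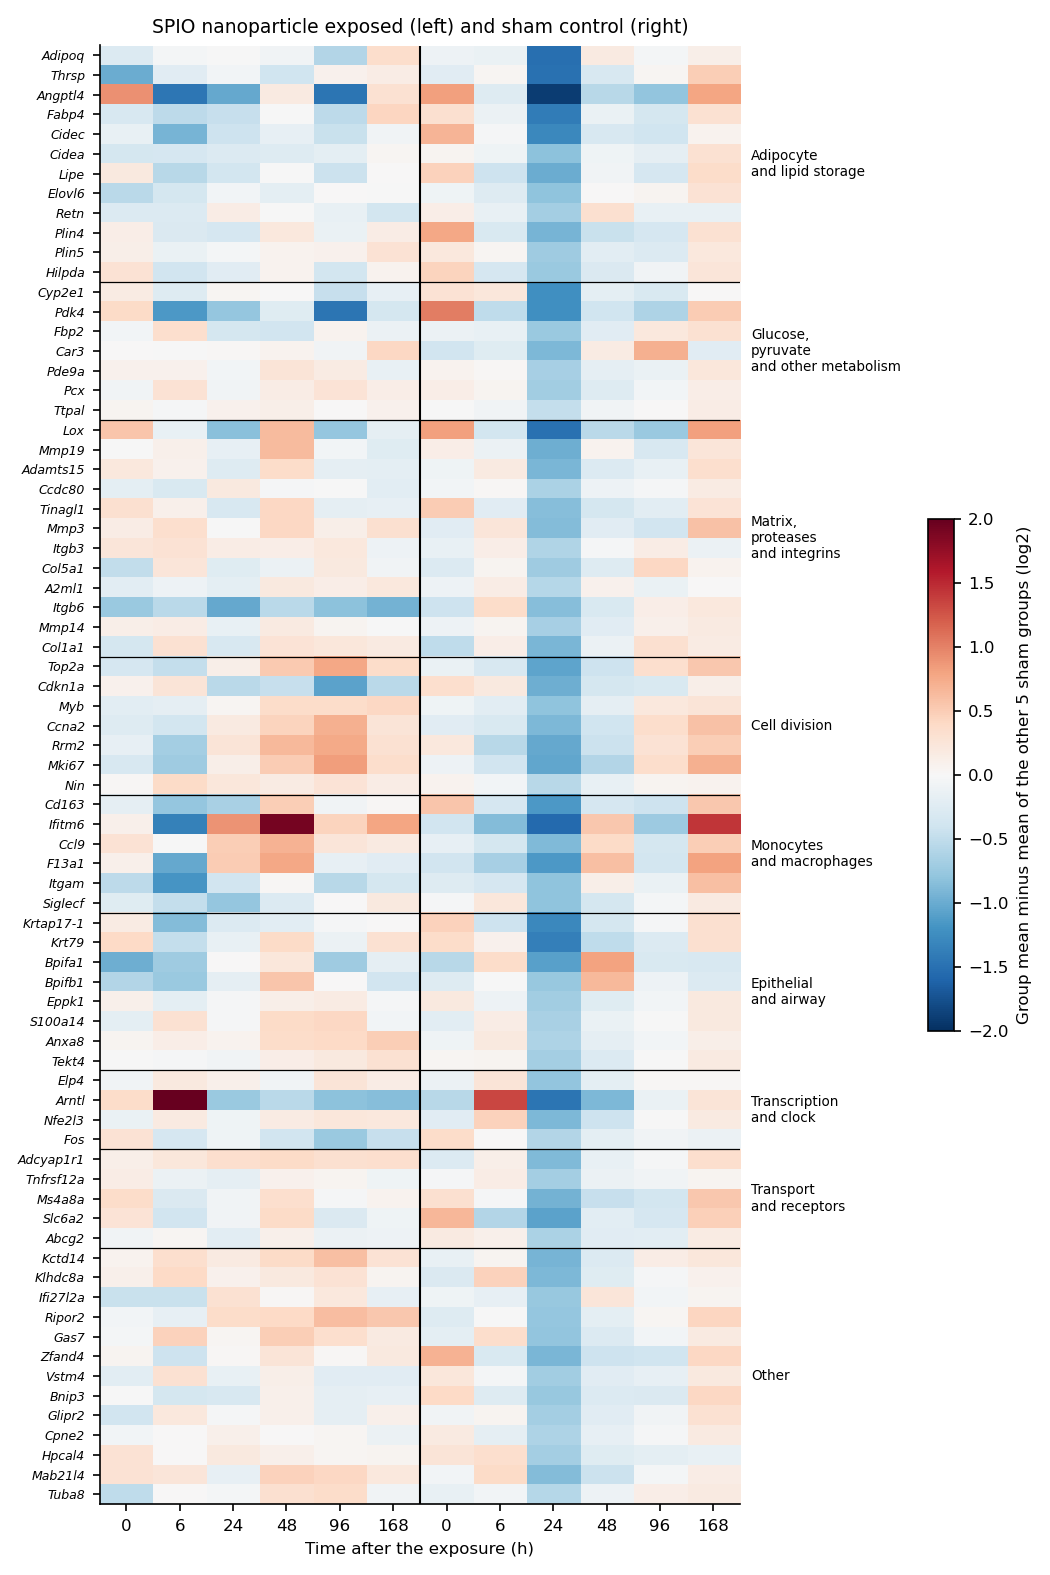
Mean log2 value of each of the 74 genes (rows, by role) in the 12 groups, relative to the mean of the 5 other sham groups, with the exposed groups on the left and the sham groups on the right, by time in h. The 24 h sham column is low for all 74 genes because the rule chose them so, and no exposed column is low for all of them.

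The members were put into 9 groups by what they are known to do. The largest gaps, that is the distance from the 24 h sham mean to the lowest of the other sham means, were those of genes of adipocytes and lipid storage, with 12 members and gaps from 0.40 to 1.37. On the list of adipose tissue markers, 10 of 12 were measured, 7 reached the level of 6 and 6 of these 7 were members (Adipoq, Fabp4, Cidec, Retn, Lipe and Cidea). The mean of the 10 measured markers ran from 5.38 to 7.02 in the 24 h exposed arrays, from 5.26 to 6.31 in the 24 h sham arrays and from 5.07 to 8.72 in the other sham arrays, and the part of fat in the samples was not tested.

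Adipoq, which encodes the adipocyte hormone adiponectin, had the widest gap of all (1.37). It stood at 9.11, 6.16, 9.16, 8.93 and 3.58 in the 24 h exposed mice, against 4.39, 7.23, 6.14, 7.73 and 3.96 in the 24 h sham controls. Other sham arrays ran from 3.13 to 11.31, so that the low mean of the 24 h sham controls (5.89 ± 1.68, SD, n = 5) came with arrays that overlapped those of every other group. In the exposed mice Adipoq averaged, in time order, 7.12 ± 1.99, 7.36 ± 1.36, 7.39 ± 2.47, 7.34 ± 1.72, 6.81 ± 2.35 and 7.76 ± 0.98 (SD, n = 5 each), with no call at any time. The spread between mice of 1 group was larger than any distance between these means.

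Fabp4, the fatty acid binding protein of adipocytes and macrophages, had 11.32, 8.49, 11.14, 11.08 and 7.53 in the 24 h exposed mice, against 7.66, 9.999, 9.07, 9.98 and 8.17 in the 24 h sham controls. Exposed mice 2 and 5 of 24 h, the lowest in Adipoq, were the lowest in Fabp4 too. Thrsp, a regulator of lipogenesis, had 9.52, 7.60, 9.18, 9.30 and 7.48 in the 24 h exposed mice, against 6.49, 7.81, 7.54, 7.79 and 6.24 in the 24 h sham controls. Cidec, a protein of lipid droplets, had 6.997, 6.06, 7.14, 7.10 and 5.83 in the 24 h exposed mice, against 5.82, 6.11, 5.80, 6.11 and 4.99 in the 24 h sham controls. In each of these 4 genes the same exposed mice, 2 and 5, were the lowest of the exposed mice and did not exceed the highest sham control.

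Angptl4, an inhibitor of lipoprotein lipase that is induced by fasting and by fatty acids, varied more by time than between mice. Its levels were 9.33, 7.57, 9.26, 8.46 and 9.35 in the 24 h exposed mice, against 8.16, 7.32, 7.73, 8.17 and 8.15 in the 24 h sham controls. Both arms were high at 0 h, with 10.72 ± 0.33 in exposed mice and 10.62 ± 0.76 in sham controls (SD, n = 5 each). Exposed mice were again high at 168 h (10.12 ± 0.24) and low at 6 h (8.36 ± 0.37) and 96 h (8.35 ± 0.49). The other members of this role were Cidea, Lipe (hormone-sensitive lipase), Elovl6 (a fatty acid elongase), Retn (resistin), the perilipins Plin4 and Plin5, and Hilpda, which blocks droplet lipolysis, and their 24 h exposed means were 0.52 to 0.82 above the 24 h sham means.

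The 7 members of glucose, pyruvate and other metabolism had gaps from 0.40 to 0.92. Cyp2e1, a cytochrome of liver and fat, had 10.52, 8.65, 10.57, 10.27 and 8.39 in the 24 h exposed mice, against 8.07, 8.76, 8.86, 9.48 and 6.93 in the 24 h sham controls. Car3, the carbonic anhydrase of muscle and fat, averaged 10.79 ± 2.33 in the 24 h exposed mice and 9.86 ± 1.73 in the 24 h sham controls (SD, n = 5 each). Pdk4, the kinase that shuts pyruvate dehydrogenase in fasting, averaged 7.29 ± 0.81 in the 24 h exposed mice and 6.83 ± 0.43 in the 24 h sham controls. Fbp2 and Pcx, of gluconeogenesis, were higher by 0.39 and 0.63 in the 24 h exposed mice.

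Several members followed Adipoq from mouse to mouse. Among the 30 exposed mice, with each value taken from the mean of its time so that only the spread between mice of 1 group was left, Adipoq was set against each of the other 11181 genes by a two-sided permutation test within times (100000 permutations, Benjamini-Hochberg over the 11181 relations). Of 73 members 18 were positively correlated with it (3.97% of all genes), and 1, Nin, negatively (0.814%). A Pearson r of at least 0.8 was found for 13 of 73 members (1.06% of all genes).

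Car3 had a Pearson r of 0.98 and a Spearman rho of 0.98, Fabp4 had 0.97 and 0.98, Retn had 0.95 and 0.97, and Cidea had 0.91 and 0.94 (for each, permutation p = 1e-05, the smallest these permutations can give, adjusted p = 0.00084). Without the 2 mice farthest from the median in Adipoq r was 0.98, 0.97, 0.96 and 0.91 for these 4 genes, and without the 24 h exposed array 3 it was 0.98, 0.97, 0.95 and 0.91. Cyp2e1 (r = 0.89, rho = 0.93) and Thrsp (r = 0.87, rho = 0.92) were in the same class, also at adjusted p = 0.00084 by permutation. Genes of airway epithelium were there as well. Bpifa1, a secreted protein of the upper airway epithelium, had r = 0.89 and rho = 0.94, and its neighbour Bpifb1 had r = 0.87 and rho = 0.90 (for both, permutation, adjusted p = 0.00084). Without the 2 farthest mice r was 0.88 for Bpifa1 and 0.89 for Bpifb1.

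Other members did not follow Adipoq detectably. Lox had r = -0.01 (permutation p = 0.96, adjusted p = 0.99), Angptl4 r = -0.19 (permutation p = 0.42, adjusted p = 0.73) and Lipe r = 0.18 (permutation p = 0.47, adjusted p = 0.77). Top2a had r = -0.43 (permutation p = 0.026, adjusted p = 0.21).

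The promoter of Adipoq is shown because its gene had the widest gap and served as the measure for the co-variation. It is the window of 250 bases before the start of the gene in RefSeq, build GRCm38.p6, chr16:23146286-23146535 (plus strand). Capitals mark each CCAAT box, written CCAAT on the strand of the gene or ATTGG on the other.
Adipoq: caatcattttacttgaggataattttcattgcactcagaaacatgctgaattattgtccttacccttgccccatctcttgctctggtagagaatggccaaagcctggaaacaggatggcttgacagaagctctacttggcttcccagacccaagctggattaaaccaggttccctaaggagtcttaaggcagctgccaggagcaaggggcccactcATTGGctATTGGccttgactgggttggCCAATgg

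Adipoq held 3 CCAAT boxes, all within the last stretch before its start. Motifs were counted in the first RefSeq entry of each gene, of 300 bases, from 250 before to 50 after the start listed there. Of 55 members with an entry, 26 held at least 1 CCAAT box (47.3%), against 37.9% of 27025 promoters of the same length and 37.8% of those of genes at a level of at least 6. TATAAA, on either strand, was found in 11 of 55 (20%), against 14.2% of all promoters and 7.09% of those of genes at that level. GGGCGG, on either strand, was found in 24 of 55 (43.6%), against 35.9% of all promoters and 65.1% of those of genes at that level. None of these motifs contains another, and a match is a match of letters only.

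The 12 members of the matrix, its proteases and the integrins had gaps from 0.42 to 0.76. Lox, which crosslinks collagen and elastin, had 10.32, 8.91, 10.82, 10.80 and 9.45 in the 24 h exposed mice, against 9.20, 9.23, 9.76, 9.33 and 9.50 in the 24 h sham controls. The groups overlapped, since exposed mice 2 and 5 did not exceed the highest sham control. A second probe set of Lox, at a mean of 10.33, gave a gap of 0.50 but lay at 9.18 in the 24 h exposed mice and at 9.44 in the 24 h sham controls, so the direction between the arms at 24 h differed between the probe sets of this gene.

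Tinagl1, a matrix glycoprotein, had 8.22, 7.99, 8.30, 8.41 and 7.73 in the 24 h exposed mice, against 7.23, 7.73, 7.53, 7.71 and 7.74 in the 24 h sham controls. Mmp3 and Mmp19, both metalloproteinases, were higher by 0.86 and 0.82 in the 24 h exposed mice, and the fibrillar collagens Col1a1 and Col5a1 by 0.60 and 0.47. Itgb6, the epithelial integrin subunit that activates TGF-beta, was the member with the opposite sign. It had 7.05, 7.41, 6.46, 6.65 and 6.09 in the 24 h exposed mice, against 6.95, 7.91, 6.91, 6.76 and 5.97 in the 24 h sham controls, and its exposed means ran from 6.73 to 7.21 over the 6 times, against 7.34 to 8.12 in the other sham groups.

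**Figure D3:**
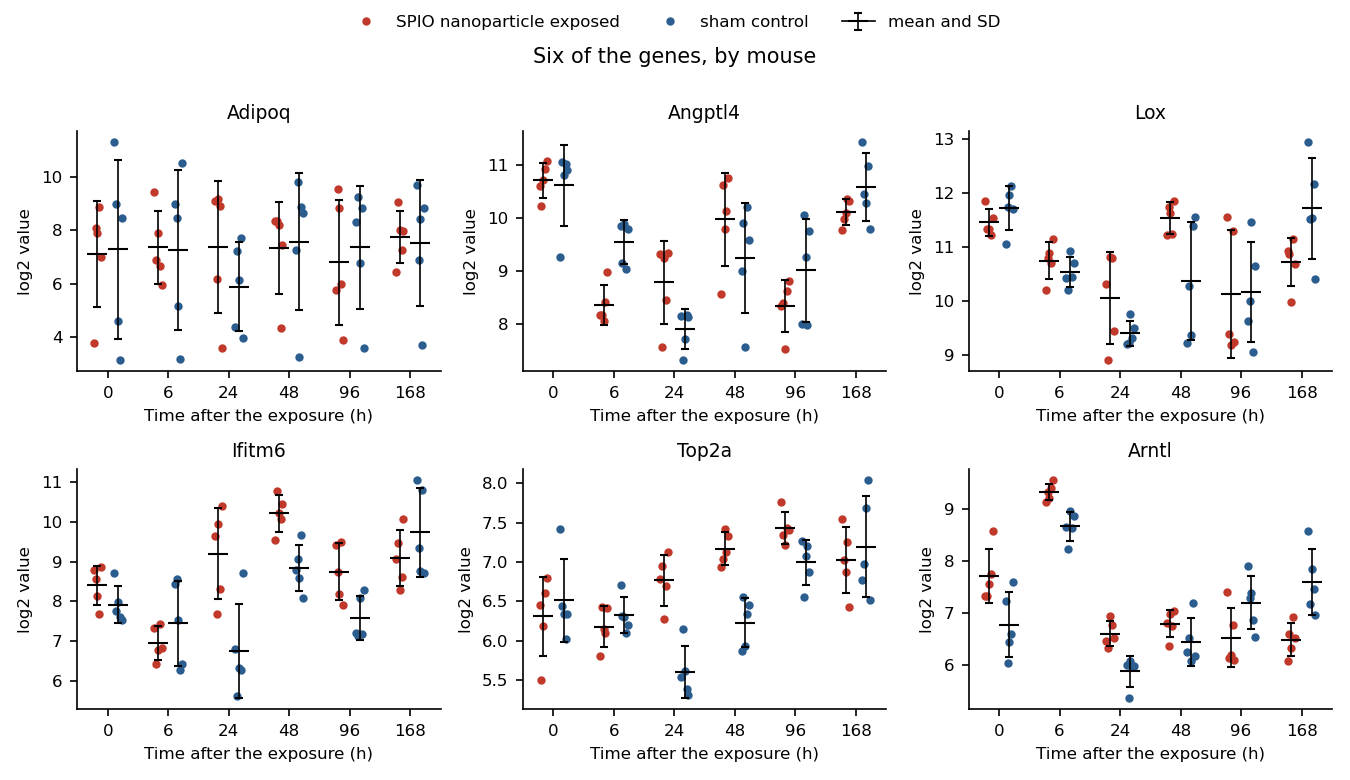
Log2 value of Adipoq, Angptl4, Lox, Ifitm6, Top2a and Arntl in each mouse (points), with the group mean and SD (bars), for exposed mice (red, left) and sham controls (blue, right) by time in h. The 24 h sham controls lie below all exposed mice of 24 h for Top2a and Arntl, and overlap with them for the other 4 genes.

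The 7 members of cell division had gaps from 0.40 to 0.63, and the sham 24 h means were the lowest of all 12 groups for all of them except Cdkn1a. On the list of cell cycle and DNA replication genes 4 of the 24 at that level were members (Top2a, Mki67, Ccna2 and Rrm2). Top2a, the topoisomerase of dividing cells, had 6.79, 6.95, 6.28, 6.70 and 7.12 in the 24 h exposed mice, against 5.54, 6.16, 5.62, 5.39 and 5.31 in the 24 h sham controls. Rrm2, a subunit of ribonucleotide reductase, had 7.29, 7.07, 6.54, 7.11 and 7.38 in the 24 h exposed mice, against 5.61, 6.15, 6.03, 5.54 and 5.64 in the 24 h sham controls. Neither gene overlapped between the arms at 24 h.

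Mki67, the nuclear protein used as a marker of cycling cells, averaged 6.79 ± 0.29 in the 24 h exposed mice and 5.63 ± 0.39 in the 24 h sham controls (SD, n = 5 each), and Ccna2, a cyclin of S phase and G2, was higher by 1.07 in the exposed mice. Myb, a transcription factor of progenitor cells, averaged 8.66 ± 0.34 in the 24 h exposed mice and 7.81 ± 0.20 in the 24 h sham controls. Cdkn1a, the p53 target that stops the cycle, differed from the others. It averaged 9.89 in the 24 h exposed mice and 9.46 in the 24 h sham controls, and was lowest in the exposed mice of 96 h, at 9.36, when Top2a, Rrm2 and Mki67 were at their highest.

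Promoters of 3 cell division members are shown because these genes were called lower at 6 h and higher at 96 h in the exposed mice, as described further on. They are the parts of the RefSeq windows (GRCm38.p6) that lie before the annotated gene, which left out the last 10 of 250 bases for Top2a and the last 71 for Mki67, with Top2a at chr11:99024200-99024439 (minus strand), Rrm2 at chr12:24708004-24708253 (plus strand) and Mki67 at chr7:135716451-135716629 (minus strand). Capitals mark CCAAT boxes on either strand.
Top2a: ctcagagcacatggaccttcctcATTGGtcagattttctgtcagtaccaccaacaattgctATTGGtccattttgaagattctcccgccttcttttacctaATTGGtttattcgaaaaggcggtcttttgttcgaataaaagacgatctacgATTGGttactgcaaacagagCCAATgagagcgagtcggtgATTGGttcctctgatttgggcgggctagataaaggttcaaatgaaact
Rrm2: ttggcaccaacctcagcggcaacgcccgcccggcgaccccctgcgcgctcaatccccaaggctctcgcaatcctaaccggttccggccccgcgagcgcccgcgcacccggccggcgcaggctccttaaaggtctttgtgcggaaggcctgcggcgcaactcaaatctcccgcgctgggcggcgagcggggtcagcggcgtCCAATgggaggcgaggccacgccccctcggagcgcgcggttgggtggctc
Mki67: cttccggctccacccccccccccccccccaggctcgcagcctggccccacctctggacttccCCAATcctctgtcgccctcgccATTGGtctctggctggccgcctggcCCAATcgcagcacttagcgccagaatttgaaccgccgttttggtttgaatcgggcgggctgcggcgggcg

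Top2a held 6 CCAAT boxes, Mki67 3 and Rrm2 1. Among the 6 cell division members with a promoter entry, 3 held a CCAAT box (50%, against 37.9% of all promoters and 37.8% at that level). TTTCCCGC and TTTGGCGC, forms of the site bound by E2F factors, were not found in any of the 55 entries, against 1.11% and 0.537% of all promoters and 2.06% and 1.03% of those of genes at a level of at least 6.

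The 6 members of monocytes and macrophages had gaps from 0.46 to 0.72 and held the largest differences between the arms at 24 h. Ifitm6, an interferon-induced membrane protein of myeloid cells, had 9.65, 7.70, 9.95, 8.32 and 10.40 in the 24 h exposed mice, against 6.79, 5.61, 6.33, 6.28 and 8.72 in the 24 h sham controls, a difference of 2.46. F13a1, the coagulation factor subunit carried by monocytes, had 11.09, 9.91, 10.91, 10.22 and 11.04 in the 24 h exposed mice, against 8.58, 8.46, 8.93, 8.40 and 10.57 in the 24 h sham controls, a difference of 1.65. In both genes 1 sham mouse, array 5, fell within the range of the exposed mice, and the other 4 lay below it.

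Ccl9, a chemokine of myeloid cells, had 10.34, 9.53, 10.40, 9.89 and 10.12 in the 24 h exposed mice, against 7.90, 8.76, 8.90, 8.19 and 9.72 in the 24 h sham controls, where array 5 was again the highest. Cd163, the haptoglobin-hemoglobin receptor of tissue macrophages, had 7.01, 6.17, 6.54, 6.49 and 5.65 in the 24 h exposed mice, against 5.86, 6.04, 6.26, 5.58 and 5.61 in the 24 h sham controls. Siglecf, the lectin of alveolar macrophages and eosinophils, stood at 6.92 ± 0.25 in the 24 h exposed mice and at 6.90 ± 0.53 in the 24 h sham controls (SD, n = 5 each). On the marker lists, 2 of 17 monocyte markers (F13a1 and Ifitm6) and 4 of 22 macrophage markers (Siglecf, Cd163, Krt79 and Cidec) at that level were members. No neutrophil, T cell or B cell marker was, and 0.662% of all genes at that level were members. The lists themselves also stood lower in the 24 h sham controls than genes at that level in general. Their median difference from the other sham groups was -0.39 for monocyte, -0.28 for macrophage and -0.27 for neutrophil markers. It was -0.33 for B and plasma cell and -0.30 for T and NK cell markers, against -0.12 over all 11182 genes.

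**Figure D4:**
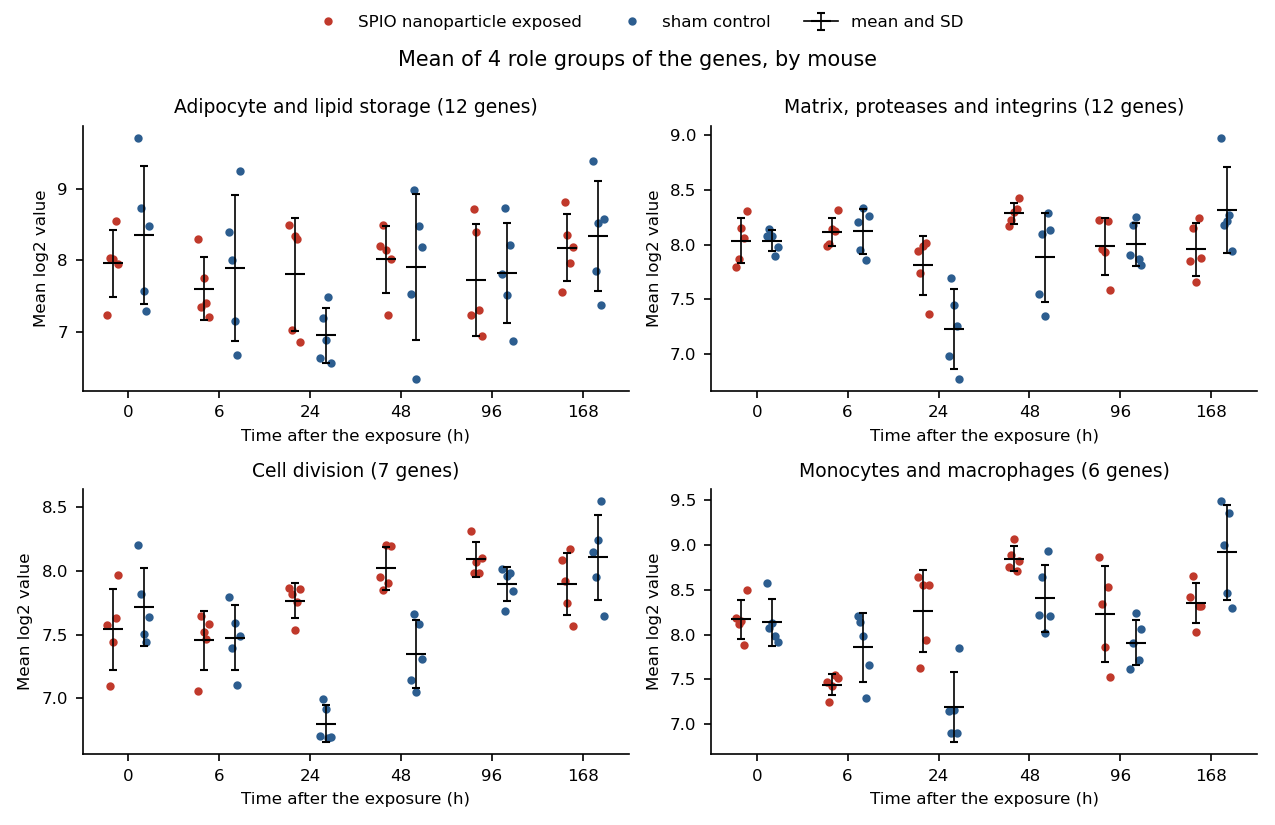
Mean log2 value in each mouse (points), with group mean and SD (bars), over the members of adipocytes and lipid storage (12), of the matrix, proteases and integrins (12), of cell division (7) and of monocytes and macrophages (6), for exposed mice (red, left) and sham controls (blue, right) by time in h. The monocyte and macrophage members of the exposed mice lie lowest at 6 h, between 7.25 and 7.55, and highest at 48 h, between 8.71 and 9.06. In the sham controls these members averaged, in time order, 8.14, 7.86, 7.19, 8.41, 7.91 and 8.92.

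The 8 epithelial and airway members had gaps from 0.41 to 0.88. Krtap17-1, annotated as a keratin-associated protein, had 7.86, 8.33, 7.97, 8.08 and 7.67 in the 24 h exposed mice, against 6.41, 6.72, 7.10, 7.42 and 7.22 in the 24 h sham controls, with no overlap. Krt79, a keratin that is also on the macrophage list, had 7.84, 7.74, 8.17, 6.89 and 7.62 in the 24 h exposed mice, against 6.37, 6.79, 6.96, 6.48 and 5.63 in the 24 h sham controls. Bpifa1 had the widest spread of all members, with 14.06, 6.80, 13.33, 13.34 and 5.37 in the 24 h exposed mice, against 6.75, 11.89, 8.57, 13.02 and 7.20 in the 24 h sham controls. The median SD within a group was 0.41 over the members and 0.16 over all genes at that level, and 3.61 for Bpifa1.

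Of the remaining members, 4 were transcription and clock genes, 5 were transporters and receptors and 13 had other roles. Arntl, the clock factor that pairs with Clock, had 6.45, 6.33, 6.94, 6.76 and 6.51 in the 24 h exposed mice, against 6.01, 5.36, 6.07, 5.96 and 5.98 in the 24 h sham controls, which did not overlap. Among the 16 clock genes at that level Arntl was the only member. Elp4, of the Elongator complex, and Nfe2l3, a bZIP transcription factor, were higher by 0.89 and 0.82 in the 24 h exposed mice, and Fos, the immediate early gene, by 0.51. Adcyap1r1, the receptor of the neuropeptide PACAP, had 7.04, 6.28, 6.85, 6.74 and 6.09 in the 24 h exposed mice, against 5.45, 5.92, 4.53, 6.05 and 4.97 in the 24 h sham controls.

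The members nearest to the threshold were Hilpda and Ttpal with gaps of 0.404 each and Nin with 0.402. Just outside were St6galnac3 and Tpgs1 with 0.398 each and Aldh3a1 with 0.393. Applied to the other groups, the same rule of a mean at least 0.4 below each other group of the arm found 4 genes in the 24 h exposed mice (0.0358% of all genes), none of them a member, and 74 in the 6 h exposed mice (0.662%). Of the members, 7 were also low in this way in the exposed mice of 6 h (Cidec, F13a1, Ifitm6, Itgam, Krtap17-1, Rrm2 and Zfand4), 2 at 0 h (Thrsp and Tuba8, against 0.393% of all genes) and 1 at 96 h (Cdkn1a, against 0.0537%).

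The levels of the members within the exposed arm were tested by comparing each exposed group with the mean of the other 5 exposed groups (limma, adjusted p over all 18193 genes). At 24 h, 0 of 74 members were lower and 0 were higher than in the other exposed groups (0.0715% and 0.0894% of the genes at that level). At an unadjusted p under 0.05, 11 of 74 were lower and 1 was higher, against 571 and 530 of the 11182 genes. The median difference over the members was -0.11, with 49 of 74 below 0, and over all 11182 genes it was -0.0041. In a fit with a variance of its own for each group the counts at 24 h were also 0 and 0. Array weights called Mab21l4 and Siglecf lower, and Mab21l4 was called lower without exposed array 3 of 24 h (by 0.58, adjusted p = 0.04) or array 3 of 168 h (by 0.51, adjusted p = 0.028).

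The 24 h members with the smallest p in limma were Mab21l4 at -0.48 ± 0.12 (SE, adjusted p = 0.065), Arntl at -0.76 ± 0.21 (adjusted p = 0.12) and Siglecf at -0.62 ± 0.18 (adjusted p = 0.16). Mab21l4 had 7.59, 8.11, 8.38, 8.12 and 7.75 in the 24 h exposed mice, and 7.87 to 8.99 in the other exposed mice. Lox was at -0.86 ± 0.33 (adjusted p = 0.40) and Angptl4 at -0.71 ± 0.31 (adjusted p = 0.50). For Adipoq and the other members not called, the test does not show that 24 h was like the other times.

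At other times 17 of 74 members were called at 1 or more times (23%, against 10.2% of all genes at that level), in 26 calls. At 0 h, 2 were lower (2.84% of all genes) and 3 higher (1.55%). At 6 h, 11 were lower (2.97%) and 3 higher (3.23%). At 48 h, 0 were lower (0.0626%) and 1 higher (0.0537%), at 96 h 2 lower (0.161%) and 3 higher (0.51%), and at 168 h 1 lower (0.197%) and 0 higher (0.0268%). The 6 comparisons use the same 30 exposed arrays and are not independent of each other. By the stated times, that of 6 h is also a comparison between hours of the day. Of the 26 calls 8 held without any 1 exposed array, and 7 of these in the other 9 settings too.

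**Figure D5:**
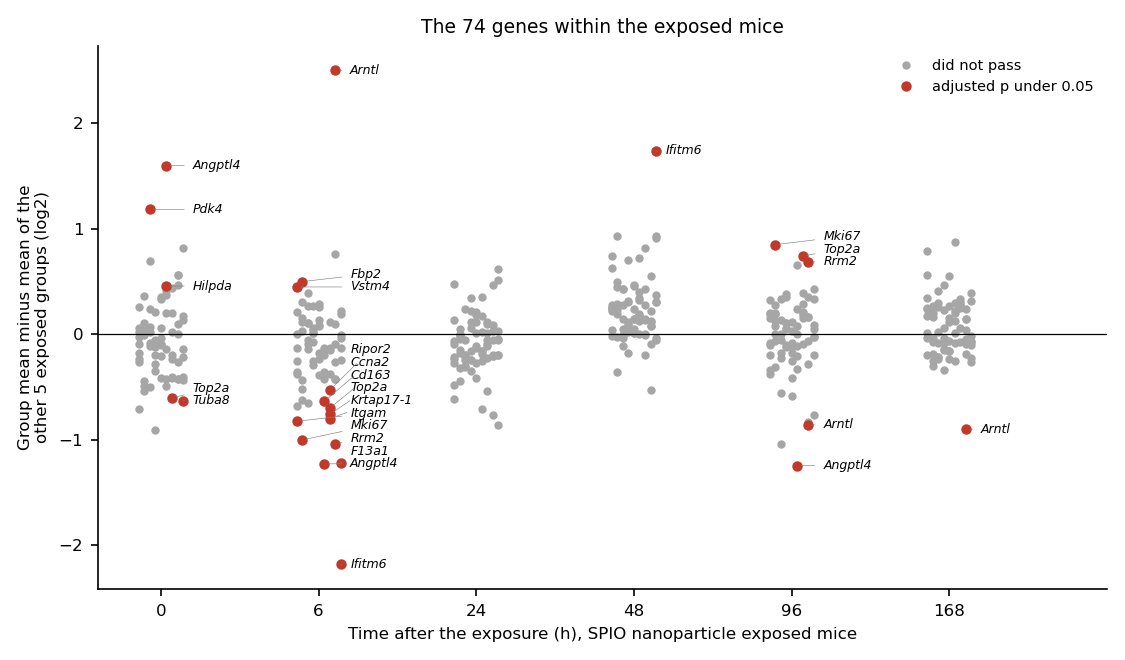
Difference in log2 value of each exposed group from the mean of the other 5 exposed groups, for the 74 genes at each time in h (points), with calls at an adjusted p under 0.05 in red. At 24 h no gene was called, and at 6 h 11 were lower and 3 higher.

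At 6 h 4 of the 6 monocyte and macrophage members and 4 of the 7 cell division members were lower, and the other 6 calls were of members of other roles. Ifitm6 had 7.33, 6.42, 6.77, 7.42 and 6.83 in the exposed mice of 6 h, and all lay below the 25 other exposed arrays. It was lower by 2.18 ± 0.38 (SE, limma, adjusted p = 1e-04, at most 0.0018 without any 1 array). F13a1 had 9.34, 8.93, 9.05, 9.55 and 8.68 at 6 h and was lower by 1.22 ± 0.26 (adjusted p = 0.0021, at most 0.019 without any 1 array). Itgam, the alpha chain of the integrin CD11b, and Cd163 were lower by 0.83 ± 0.24 (adjusted p = 0.032) and 0.70 ± 0.21 (adjusted p = 0.034). Both calls were lost without 1 of 4 arrays of 6 h, at adjusted p up to 0.16 for Itgam (without array 1, 2, 3 or 5) and 0.19 for Cd163 (without array 1, 2, 4 or 5). On the whole lists, 9 of 17 monocyte markers were lower at 6 h and 0 higher, with a median difference of -0.60, and of 22 macrophage markers 1 was lower (2.97% of all genes).

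Some other lists of white blood cells held calls at 6 h as well (2.97% of all genes were lower and 3.23% higher). Of 13 neutrophil markers 7 were lower, among them S100a8 and S100a9, and 1 (Lcn2) higher, with a median difference of -0.88. Of 25 genes of leukocyte signaling 12 were lower and 0 higher, of 23 of leukocyte adhesion and migration 9 were lower and 1 higher, and of 20 innate immune receptors 6 were lower and 1 higher. Of 12 B and plasma cell markers and 11 T and NK cell markers, 0 were called at 6 h, with median differences of -0.12 and -0.04. Of 10 dendritic cell and antigen presentation genes 0 were lower and 1 higher. The part of white blood cells in the levels of the members was not tested.

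At 48 h Ifitm6 was the only member called. It had 9.56, 10.79, 10.22, 10.07 and 10.45 and was higher by 1.74 ± 0.38 (limma, adjusted p = 0.033), a call lost without array 2, 3, 4 or 5 of 48 h (adjusted p up to 0.29). Over the 6 times its level in the exposed mice was, in order, 8.41 ± 0.49, 6.95 ± 0.42, 9.20 ± 1.15, 10.22 ± 0.46, 8.75 ± 0.72 and 9.10 ± 0.70 (SD, n = 5 each). The median difference of the members at 48 h was 0.21, with 60 of 74 above 0 (5606 of 11182 genes), and 48 h was the highest of the exposed groups for 24 of 74 members (13.4% of all genes).

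Rrm2 had 5.62, 6.56, 6.26, 6.07 and 6.22 in the exposed mice of 6 h and was lower by 1.04 ± 0.16 (SE, limma, adjusted p = 1.8e-05, at most 0.00083 without any 1 array). Mki67 was lower at 6 h by 1.003 ± 0.21 (adjusted p = 0.0019, at most 0.036, but not called in the fit with a variance for each group) and Top2a by 0.76 ± 0.18 (adjusted p = 0.0062, at most 0.045). The call of Ccna2 at 6 h, lower by 0.64 ± 0.20 (adjusted p = 0.048), was lost without any 1 of 18 of the 30 exposed arrays, at adjusted p up to 0.16. On the whole list of cell cycle genes 12 of 24 were lower at 6 h and 0 higher (2.97% and 3.23% of all genes).

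At 96 h the same genes stood on the other side. Top2a had 7.77, 7.34, 7.21, 7.44 and 7.40 and was higher by 0.74 (limma, adjusted p = 0.034), Rrm2 by 0.68 (adjusted p = 0.032) and Mki67 by 0.85 (adjusted p = 0.042). The call of Top2a was lost without any 1 array of 96 h (adjusted p up to 0.13), that of Rrm2 without array 1, 2, 3 or 5 of 96 h (up to 0.15), and that of Mki67 without any 1 of 10 arrays (up to 0.18). Of the 24 genes on the whole list, 9 rose at 96 h and 0 fell (0.51% and 0.161% of all genes), with a median difference of 0.37. Of 12 B and plasma cell markers 4 were also higher at 96 h (Cd79b, Fcer2a, Mzb1 and Spib), with a median difference of 0.77. No T and NK cell marker of 11 and no muscle marker of 10 was called there, with median differences of 0.46 and 0.67, and the part of these cells was not tested. At 0 h Top2a was lower by 0.61 ± 0.18 (adjusted p = 0.049), a call lost without any 1 of 21 arrays (up to 0.35). The sham controls, too, were higher at 96 h than at 6 h in these genes. Averaged over the 7 cell division members they stood at 7.48 at 6 h and 7.90 at 96 h, against 7.46 and 8.09 in the exposed mice.

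Arntl showed the largest difference of any member. It had 9.13, 9.33, 9.21, 9.39 and 9.54 in the exposed mice of 6 h, all above the 25 other exposed arrays, which ran from 6.07 to 8.57. It was higher at 6 h by 2.50 ± 0.21 (SE, limma, adjusted p = 4.5e-13, at most 4.5e-11 without any 1 array). At 96 h it was lower by 0.86 (adjusted p = 0.033, up to 0.25 without array 2, 3 or 5 of 96 h), and at 168 h by 0.90 (adjusted p = 0.035, up to 0.25 without array 1, 2, 3 or 5 of 168 h). The sham controls were also highest at 6 h, at 8.67 ± 0.28 (SD, n = 5). Of the 16 clock genes, 6 were lower at 6 h in the exposed mice (Per3, Nr1d1, Nr1d2, Dbp, Tef and Hlf) and 4 higher (Arntl, Clock, Cry1 and Nfil3).

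A promoter window of Arntl is shown as that of the member with the largest tested difference. It holds the 250 bases before the first start that the RefSeq promoter table (GRCm38.p6) lists for it, chr7:113207215-113207464 (plus strand). This start lies inside the gene, which is annotated at chr7:113178471-113314126, so the window is not the sequence before the gene's outermost start. Capitals mark CCAAT boxes on either strand.
Arntl: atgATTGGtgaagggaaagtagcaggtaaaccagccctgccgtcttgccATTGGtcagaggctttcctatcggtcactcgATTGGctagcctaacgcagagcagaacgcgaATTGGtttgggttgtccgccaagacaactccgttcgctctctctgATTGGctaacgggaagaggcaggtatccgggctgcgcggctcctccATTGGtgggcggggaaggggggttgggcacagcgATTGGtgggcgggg

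Arntl held 7 CCAAT boxes in this window. The letters CACGTG, the E-box bound by Clock and Arntl together, were found in 5 of 55 member entries (9.09%), against 7.24% of all promoters and 10.3% of those of genes at a level of at least 6.

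Among the adipocyte and lipid members, calls were made for Angptl4 and Hilpda only. Angptl4 had 10.61, 10.24, 10.72, 10.94 and 11.08 in the exposed mice of 0 h and was higher by 1.60 ± 0.31 (SE, limma, adjusted p = 0.0013, at most 0.01 without any 1 array). At 6 h, with 8.17, 8.17, 8.06, 8.43 and 8.99, it was lower by 1.23 ± 0.31 (adjusted p = 0.011, and 0.051 without array 3 of 6 h). At 96 h it was lower by 1.25 (adjusted p = 0.041, a call lost without any 1 of 11 arrays, up to 0.35). Hilpda was higher at 0 h by 0.46 ± 0.13 (adjusted p = 0.034, up to 0.13 without array 1, 2, 3 or 5 of 0 h). None of the 7 adipose markers at that level was called at any of the 6 times.

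The other calls were of single members. Fbp2 was higher at 6 h by 0.50 ± 0.12 (limma, adjusted p = 0.0079, at most 0.041 without any 1 array). Pdk4 was higher at 0 h by 1.18 ± 0.35 (adjusted p = 0.049), which was lost without any 1 of 23 arrays (up to 0.17). Tuba8, a tubulin, was lower at 0 h by 0.63 ± 0.16 (adjusted p = 0.014, up to 0.078 without array 2 or 3 of 0 h). At 6 h Ripor2, a RhoA inhibitor, was lower by 0.53 ± 0.14 (adjusted p = 0.012, up to 0.057 without array 1 or 2 of 6 h). Krtap17-1 was lower at 6 h by 0.80 ± 0.23 (adjusted p = 0.034, up to 0.16 without array 1, 2, 3 or 4 of 6 h). Vstm4 was higher at 6 h by 0.45 ± 0.12 (adjusted p = 0.021, up to 0.15 without array 2, 3 or 4 of 6 h).

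Other probe sets of the members gave the same picture in part. Of 74 members 37 had 63 other probe sets, of which 21, of 20 members, had a mean of at least 6. Among the 21 the 24 h sham mean was the lowest of the sham groups for 18, with 1 probe set each of Kctd14, Ripor2 and Slc6a2 as exceptions, and 11 met the gap of 0.4. The 24 h exposed mean was below the 24 h sham mean for that of Lox described above and for 1 of Ccdc80, at 6.74 in exposed mice and 6.90 in sham controls. Of the 42 other probe sets below a mean of 6, 0 met the gap. Over all 11182 genes, the 24 h sham mean lay below the mean of the other sham groups for 8470. Among the 7011 genes below the level of 6, 9 met the gap.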

How the data were processed

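Lung RNA of 60 mice was hybridized to Affymetrix arrays. The deposited log2 values had been made from the scans with RMA by the authors, that is by background correction, quantile normalization and a summary over the probes of each probe set (version not given in the sources used). Such a normalization hides changes shared by all genes. Of 45101 probe sets, the 64 controls, 932 with several gene symbols and 9160 with none were left out, and the brightest of the other 34945 stood for each of 18193 genes (platform annotation). All 60 columns were matched to mice by their labels, with 0 left over.

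The members were counted by the rule. The members, the lists, the named genes (largest gaps, largest gaps per list, smallest p per contrast, edge of the rule) and the alternatives were chosen with earlier results of these data known, and the role groups, the genes shown for them and the co-variation with Adipoq after the values were seen. Each exposed group was compared with the mean of the other 5 exposed groups by limma 3.58.1 in R 4.3.3, in 1 fit over 12 groups (residual degrees of freedom 48). P-values were adjusted by Benjamini-Hochberg over all genes, and genes were called at an adjusted p under 0.05 with no fold minimum. The methods' test, an ANOVA of exposed against time-matched sham mice, would use the arrays of the rule and was not run; its unequal variances were an alternative. The fit was tested on simulated data. Mice of a group count as replicates, as the labels give 5 per condition. Promoters came from RefSeq (GRCm38.p6), matched by gene ID for 55 members. The alternatives are other thresholds, probe sets, normalizations, fits and arrays left out.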

Additional observations from a re-analysis of the deposited data

Results flagged for a closer look

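Sets of 5 values from 1 group were examined for a value far from the rest (gap to the nearest over the range above 0.71). They covered the members with the largest gaps and the mean of all 74 genes, in each of the 12 groups. Of these 132 sets 6 had such a value, and chance gives about 1 in 20. The sets share the same mice and are not independent of each other. Adipoq in the exposed mice of 48 h was lowest in array 4, at 4.32, against 7.46 to 8.36 in the others. Angptl4 in the 0 h sham controls was lowest in array 1, at 9.28, against 10.82 to 11.07; this is the array with the high Alb and Xist. Cidec was highest in array 2 of the exposed mice of 168 h, at 7.64 against 6.69 to 6.93, lowest in array 5 of the 24 h sham controls, at 4.99 against 5.80 to 6.11, and highest in array 1 of the 168 h sham controls, at 7.86 against 6.76 to 6.99. The mean of all 74 genes in the 168 h sham controls was highest in that same array 1, at 8.89 against 8.05 to 8.28.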

How the results depend on the processing

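The number of members depended on the rule and on the normalization. A gap of 0.3 gave 159 genes and a gap of 0.5 gave 36, the mean of the probe sets of a gene 49, and quantile normalization again 45, against 74. Group medians in place of group means gave 90 genes, of which only 47 were among the 74. Leaving out each sham array in turn gave 57 (without array 4 of 48 h) to 129 (without array 2 of 24 h), and 20 of the 74 stayed members without every one of the 30 arrays. With the members held as they were, the calls in the exposed arm moved by more than 1.5 times as follows, and the cause was not tested. The settings with genes of at least 6 only and with all probe sets also changed the number of tests adjusted over. Lower at 24 h, against 0, were 1 after quantile normalization again, 1 with genes of at least 6 only, 1 with the exposed arm alone (Arntl) and 2 with array weights. Lower at 0 h, against 2, were 4 with genes of at least 6 only, 1 with all probe sets, 5 with the exposed arm alone, 4 with array weights and 4 without array 1 of the 0 h sham controls, which was chosen after seeing the data. With all probe sets 7 were lower at 6 h, 0 higher at 48 h, 0 lower and 0 higher at 96 h, and 0 lower at 168 h. With array weights 5 were higher at 6 h and 2 at 48 h, with trend and robust moderation 0 were higher at 48 h and 1 lower at 96 h, with unequal variances 2 were higher at 48 h, 1 lower at 96 h and 0 lower at 168 h, and after quantile normalization again 1 was higher at 96 h.

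Without each exposed array in turn the counts ran, for lower and higher, from 0 to 5 and 1 to 3 at 0 h, 6 to 11 and 2 to 4 at 6 h, 0 to 1 and 0 to 0 at 24 h, 0 to 0 and 0 to 1 at 48 h, 0 to 2 and 0 to 3 at 96 h, and 0 to 1 and 0 to 0 at 168 h. Of the 26 calls of single members none changed sign, and over the 9 other settings 199 of these values kept the call and 35 did not. Array 1 or 2 of 6 h gave the 6 at 6 h. The replicate numbers did not pair the mice (median correlation of same-numbered arrays 0.015), and with the replicate block 1 member was lower at 0 h. The number of mice, and the within-group spread of the fat and airway genes, limit what can be detected.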
